A study of Mus musculus with 3 samples.

Results

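The genes described here make cholesterol and fatty acids, switch that synthesis on, or export sterol. They were chosen by symbol: 31 synthesis genes and the 2 sterol exporters Abca1 and Abcg1, which makes 33 of the 17796 genes in the deposited table, and all 33 were found. The cells were spleen T cells of C57BL/6 mice, activated in culture for 3 days on plate-bound antibodies against CD3 (2 ug/ml) and CD28 (5 ug/ml). For all libraries the culture held 10% serum and interleukin 2 at 100 IU/ml, and polyadenylated RNA was then sequenced. The old fumarate library came from mice given as 24 months of age and treated with fumarate, a metabolite of the citric acid cycle, at 10 mg/kg, 3 times a week for 2 months. The old vehicle library came from mice of that age given vehicle over the same course, and the young library from mice of 2 months, labelled vehicle with no stated course. Each group had 1 library, the labels do not say whether animals were pooled, so the differences given here have no replicates behind them and carry no p-value.

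Levels are given as CPM, which sum to 1000000 in each library. The steps between low values put the depth near 13.9 M reads in the old fumarate library, 17.3 M in the old vehicle library and 41.0 M in the young library. Ratios are log2 ratios of CPM + 1, and a gene is counted as higher or lower past 1.5-fold (0.585 on that scale). The 95% intervals belong to the plain CPM ratio or level and cover counting error only, not the spread between mice. All 13 T cell markers were present, with a sum of 4417 CPM in the old fumarate, 3519 CPM in the old vehicle and 4025 CPM in the young library. Thy1 made up 1453, 988 and 752 CPM of these sums. For old fumarate over young the median log2 ratio of the 13 was −0.16, and Thy1 alone was higher past 1.5-fold. Markers of other blood cells stood apart in the old vehicle library: the 12 erythroid and platelet markers summed to 152.6, 1218 and 12.9 CPM in the old fumarate, old vehicle and young libraries, with Hba-a2 and Alas2 at 0 in the old fumarate, and the 9 basophil and mast cell markers to 81.7, 453 and 5.42 CPM. The 8 macrophage and monocyte markers in the table summed to 5.41, 33.5 and 3.03 CPM, with Csf1r and C1qb at 0 in both the old fumarate and the young library, Adgre1 at 0 in the old fumarate and Fcgr1 in the young. The 8 B cell markers summed to 18.5, 18.2 and 6.42 CPM, with none at 0. The part these cells had in the differences below was not tested, and in bulk RNA fewer cells of a type and less RNA per cell cannot be told apart.

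Cholesterol is built from acetyl units through mevalonate, isoprenoids, squalene and a series of sterols. The sterol regulatory element-binding proteins, encoded by Srebf1 and Srebf2, are held in the endoplasmic reticulum with their escort Scap by Insig proteins while sterol is plentiful, and switch on the genes of synthesis when it is scarce. Liver X receptors (LXR) sense oxidised sterols and switch on the exporters Abca1 and Abcg1, Srebf1 and several fatty acid genes. Activated T cells raise lipid synthesis as they grow and divide.

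RefSeq promoter windows (build GRCm38.p6, 250 bases before to 50 bases after a start site) were matched for 26 of the 33 members and searched on both strands. TCACNCCAC, the core of a sterol response element, occurred in 1 of the 26 members, Hmgcs1, and in 1.44% of all 27025 genes with a window. CCAAT, the box bound by NF-Y, occurred in 21 of the 26 members and in 41.1% of all genes. GGTNA repeated on the same strand after 5 bases, a direct repeat of the kind LXR binds, occurred in Abca1, Fasn, Srebf1 and Elovl1, 4 of the 26 members, and in 0.818% of all genes. All 33 members had a mean of at least 1 CPM, whereas the 27025 genes were not filtered by level. The shares for the 3 motifs thus compare unlike sets. The repeat in Abca1 and that in Fasn were the same letters, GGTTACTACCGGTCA on the strand opposite to the gene, and that in Srebf1 was GGTTACTGGCGGTCA. Printed here are Hmgcs1, the first of the mevalonate genes and at a lower level in both old libraries than in the young one, at chr13:119690101-119690400 (plus strand), Abca1, the member with the largest ratio for fumarate over vehicle, at chr4:53159846-53160145 (minus strand), and an internal start of Srebf1 at chr11:60210422-60210721 (minus strand). Each sequence runs along its gene. Capitals mark matches to the 3 motifs on either strand (CCAAT on the other strand reads ATTGG), and a match is a description of letters, not of binding.
Hmgcs1: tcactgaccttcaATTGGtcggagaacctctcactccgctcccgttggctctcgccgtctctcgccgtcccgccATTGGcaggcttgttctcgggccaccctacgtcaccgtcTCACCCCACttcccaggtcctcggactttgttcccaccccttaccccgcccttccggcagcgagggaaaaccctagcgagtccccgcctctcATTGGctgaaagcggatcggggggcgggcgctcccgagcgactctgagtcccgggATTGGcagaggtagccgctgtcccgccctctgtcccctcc
Abca1: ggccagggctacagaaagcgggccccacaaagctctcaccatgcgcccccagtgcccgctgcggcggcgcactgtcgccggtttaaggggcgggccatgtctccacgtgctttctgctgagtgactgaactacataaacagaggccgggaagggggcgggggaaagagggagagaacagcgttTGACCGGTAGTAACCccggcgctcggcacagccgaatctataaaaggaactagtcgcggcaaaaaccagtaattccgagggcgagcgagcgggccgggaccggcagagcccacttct
Srebf1: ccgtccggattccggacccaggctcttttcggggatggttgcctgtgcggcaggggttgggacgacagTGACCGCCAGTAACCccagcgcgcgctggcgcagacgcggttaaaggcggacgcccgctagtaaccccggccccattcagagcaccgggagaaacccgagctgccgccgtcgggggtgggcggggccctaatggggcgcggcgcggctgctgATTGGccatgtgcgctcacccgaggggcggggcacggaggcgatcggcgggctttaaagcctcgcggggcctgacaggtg
The sterol response core of Hmgcs1 began at position −137 from the start site, and the repeats began at −67 in Abca1 and at −182 in Srebf1.

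Most of the synthesis genes lay within 1.5-fold in each pair of libraries. Against the young library, 8 of 31 were past that limit and lower in the old vehicle library (6.73% of all genes tested were) and 6 of 31 in the old fumarate library (6.79% of all genes). Between the old libraries, the 4 synthesis genes past it were all desaturases. Scap, Fasn, Elovl1 and Elovl6 had higher levels in both old libraries than in the young one. Fasn at 0.034 for old vehicle over young had an interval that included 0, and its ratio was below 0 with 3 other scalings. Scap at 0.065 for old fumarate over young had an interval of −0.03 to 0.16. With scaling to the T cell markers in place of the library total, the median log2 ratio of the synthesis genes for old vehicle over young was −0.08, against −0.40 in CPM. Summed, the 31 synthesis genes took 0.507% of the old fumarate library (exact binomial interval 0.503% to 0.511%), 0.463% of the old vehicle library (0.460% to 0.466%) and 0.662% of the young library (0.660% to 0.665%). The mevalonate genes took 0.0859%, 0.0870% and 0.128% of the old fumarate, old vehicle and young libraries, and the squalene and sterol genes 0.0931%, 0.0914% and 0.127%. For both groups the old libraries lay close to each other and under the young one. The 3 genes of fatty acid synthesis took 0.102%, 0.0947% and 0.107%, and the desaturases and elongases 0.142%, 0.112% and 0.206%, of which Scd2 was the greater part.

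**Figure D1:**
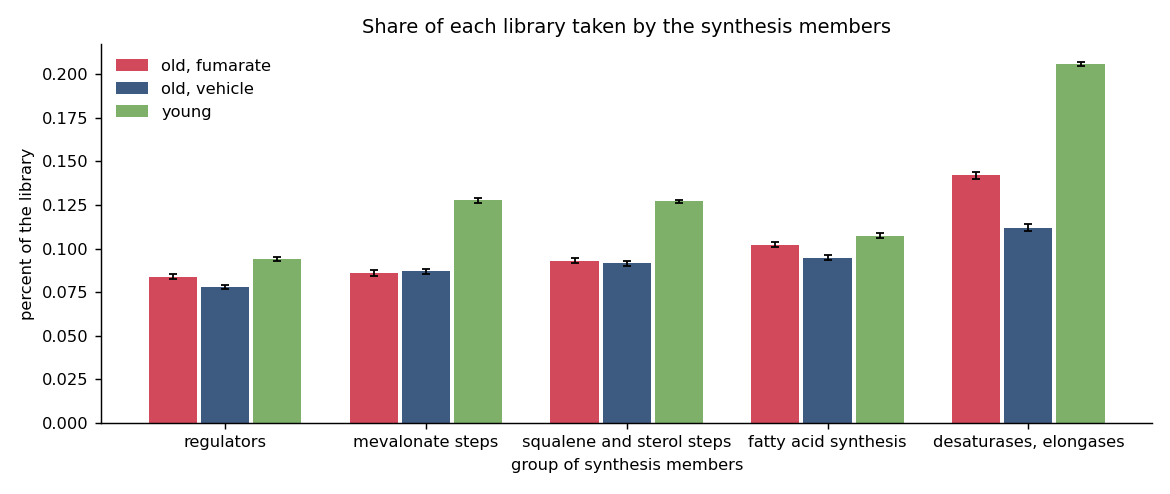
Share of each library (percent, linear axis from 0) taken by the summed CPM of 5 groups of synthesis members in the old fumarate, old vehicle and young libraries; error bars are exact 95% binomial intervals for counting error only. The mevalonate bars stand at 0.0859%, 0.0870% and 0.128%, and the desaturase and elongase bars at 0.142%, 0.112% and 0.206%.

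All 4 regulators lay within 1.5-fold in every pair. For old vehicle over young, Srebf1 at −0.40 was at the median of the 31 synthesis genes. Srebf2, which mainly drives cholesterol synthesis, was at 428 CPM in the old fumarate, 405 CPM in the old vehicle and 465 CPM in the young library. Srebf1, which mainly drives fatty acid synthesis, was at 158, 146 and 193 CPM in the same order, and Insig1, which retains the Scap complex and is itself a target of it, at 158, 131 and 193 CPM. All 3 were lowest in the old vehicle and highest in the young library, and none was past 1.5-fold in any pair. With T cell marker scaling Srebf2 was above 0 for old vehicle over young, at 0.12. By that scaling Srebf1 at −0.11 and Srebf2 at −0.15 were below 0 for old fumarate over old vehicle. Insig1 had the widest gap, a log2 ratio of −0.55 for old vehicle over young, just inside the limit. Insig1, Fdft1 and Sc5d passed that limit with 3 other scalings (TMM, median of ratios and upper quartile). Sc5d also passed it with protein-coding genes alone as the total (−0.614) and with 0.5 CPM added (−0.587). Scap, the escort, was at 94.5, 97.8 and 90.3 CPM. Per kilobase of exon, Srebf2 stood above Srebf1 in every library, at 59.6 against 28.1 CPM per kb in the old fumarate, 56.4 against 25.9 in the old vehicle and 64.7 against 34.2 in the young. Srebf1 overlaps Rai1 on the other strand, and whether reads were assigned by strand is not given in the labels.

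Of the 6 mevalonate genes, 4 were lower for old vehicle over young (Pmvk, Hmgcs1, Mvd and Fdps) and 2 for old fumarate over young (Pmvk and Mvd). With T cell marker scaling Pmvk alone was past the limit for old vehicle over young, and Mvk at 0.08 and Idi1 at 0.15 had ratios above 0. Hmgcs1, which joins acetyl units to make HMG-CoA, was at 315 CPM in the old fumarate, 254 CPM in the old vehicle and 449.9 CPM in the young library; 11.6% of its 50-base transcript windows also occur in other genes. Pmvk, which phosphorylates mevalonate phosphate, was at 27.4, 24.1 and 54.9 CPM, so that both old libraries held about the same level. Its log2 ratios were −1.16 for old vehicle over young (interval −1.34 to −1.04) and −0.97 for old fumarate over young (−1.16 to −0.84). Mvd, which makes isopentenyl diphosphate, was at 50.9, 47.7 and 81.9 CPM. Fdps, which makes farnesyl diphosphate, was at 153, 135 and 228 CPM. These 4 genes had their highest CPM in the young library, as did the other 2, whose gaps were smaller for old vehicle over young. For old fumarate over young, Idi1 at −0.576 was level with Fdps at −0.575. Mvk, mevalonate kinase, was at 25.6, 27.7 and 32.7 CPM. Idi1, the isomerase of isopentenyl diphosphate, was at 287, 381 and 428 CPM and was lowest in the old fumarate library. Of 50-base windows of Idi1 and Fdps transcripts, 25.3% and 26.2% also occur in transcripts of other genes, so the division of their reads is less certain than for Pmvk and Mvd, with 0% each.

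Of the 11 squalene and sterol genes, 2 were lower for old vehicle over young (Cyp51 and Dhcr7) and 1 for old fumarate over young (Dhcr7). With T cell marker scaling none of the 11 was lower for old vehicle over young, and the ratios of Sqle, Msmo1 and Tm7sf2 were above 0. Cyp51, the lanosterol demethylase, was at 282 CPM in the old fumarate, 251 CPM in the old vehicle and 416 CPM in the young library. Its log2 ratio for old vehicle over young was −0.73 (interval −0.78 to −0.68). Dhcr7, which makes cholesterol from its last precursor, was at 27.9, 36.2 and 56.1 CPM. It was lowest with fumarate, with log2 ratios of −0.98 for old fumarate over young (interval −1.16 to −0.85) and −0.36 for old fumarate over old vehicle. Sc5d, a sterol desaturase, was at 68.2, 56.8 and 85.6 CPM, which at −0.58 for old vehicle over young lay just inside the limit, while Dhcr7 at −0.62 lay just outside. On plain CPM Sc5d was at −0.591, past the limit. Fdft1, squalene synthase, was at 84.3, 76.3 and 112 CPM, Lss, lanosterol synthase, at 91.1, 93.8 and 135 CPM, and Nsdhl, of sterol demethylation, at 32.0, 34.3 and 48.0 CPM. Each of these 3 was within 1.5-fold in every pair, with the young library highest. Sqle, squalene epoxidase, was at 147, 147 and 178 CPM and Msmo1, a methyl sterol oxidase, at 104, 112 and 139 CPM. Hsd17b7, a sterol ketone reductase, was at 42.4, 47.1 and 46.5 CPM and Ebp, a sterol isomerase, at 44.0, 49.0 and 45.1 CPM, so these 2 were highest in the old vehicle library. Tm7sf2, a sterol reductase, was the lowest of the group at 7.51, 9.65 and 11.6 CPM. Tm7sf2 shares 9.87% of its windows, and it overlaps Vps51 on the same strand. For Fdft1, which overlaps Ctsb on the other strand, 26.5% of windows were shared, and Cyp51 overlaps Akap9 on the other strand.

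**Figure D2:**
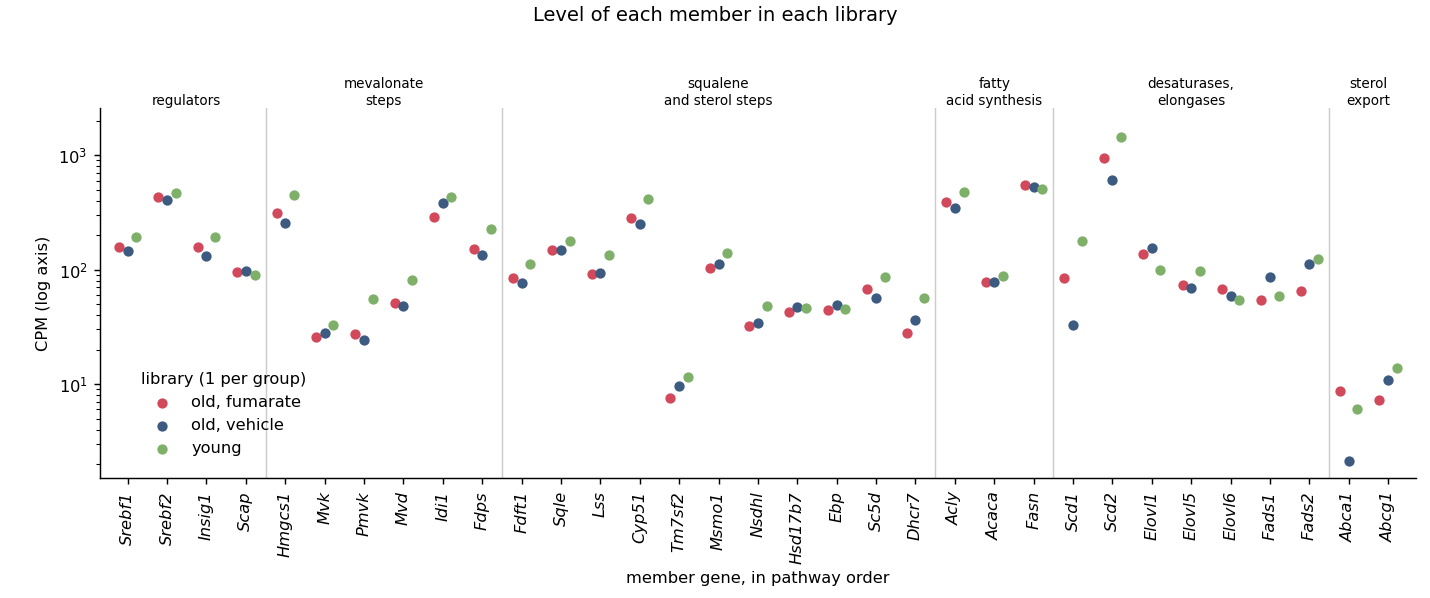
Level of each of the 33 members (CPM, log axis) in the old fumarate, old vehicle and young libraries, 1 point a library, with genes in pathway order. The young points stand above both old points for the 6 mevalonate genes (with T cell identity scaling Mvk and Idi1 are higher in old vehicle than in young), and the 3 points of Scd1 are spread from 33.1 CPM in the old vehicle to 178 CPM in the young library.

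The genes that build saturated fatty acids differed less. Fasn, fatty acid synthase, was at 551 CPM in the old fumarate, 523 CPM in the old vehicle and 511 CPM in the young library. Its log2 ratios were 0.07 for old fumarate over old vehicle and 0.03 for old vehicle over young. Acly, which makes cytosolic acetyl-CoA from citrate, was at 393, 347 and 476 CPM, and Acaca, which carboxylates acetyl-CoA, at 78.6, 77.6 and 87.6 CPM. None of the 3 was past 1.5-fold in any pair. For Acaca 30.4% of windows occur in transcripts of other genes.

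The desaturases held the widest differences among the synthesis genes. Scd1, a stearoyl-CoA desaturase, lies at chromosome 19, 44394455 to 44407879, in mm10. Its level was 84.2 CPM in the old fumarate, 33.1 CPM in the old vehicle and 178 CPM in the young library. Its log2 ratio was 1.32 for old fumarate over old vehicle (interval 1.20 to 1.49), −2.40 for old vehicle over young (−2.56 to −2.31) and −1.07 for old fumarate over young (−1.17 to −0.99). Its neighbour Scd2, a second enzyme of that kind (chromosome 19, 44293674 to 44306864), was at 937, 608 and 1445 CPM, with ratios of 0.62, −1.25 and −0.62 in the same pairs. Both desaturases were thus lowest in the old vehicle and highest in the young library, with the fumarate library between. Per kilobase of exon Scd2 stood above Scd1 in each library, at 171 against 17.2 CPM per kb in the old fumarate, 111 against 6.76 in the old vehicle and 264.5 against 36.4 in the young. Only 4.56% of windows of Scd1 and 3.97% of those of Scd2 were shared with other genes, among them each other and Scd3.

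Fads1 and Fads2, desaturases of polyunsaturated fatty acids that lie side by side on chromosome 19, had another order. Fads1 was at 54.4 CPM in the old fumarate, 86.3 CPM in the old vehicle and 59.3 CPM in the young library, and Fads2 was at 65.5, 111 and 125 CPM. Both were lowest with fumarate, with log2 ratios over old vehicle of −0.66 (interval −0.79 to −0.54) and −0.75 (−0.88 to −0.65). For old vehicle over young Fads1 was at 0.53 and Fads2 at −0.16. Of the elongases, which lengthen fatty acids, Elovl1 was at 137, 154 and 99.7 CPM, Elovl5 at 72.7, 68.6 and 97.7 CPM and Elovl6 at 67.8, 59.3 and 54.1 CPM. Elovl1 was higher in both old libraries, with a ratio of 0.62 for old vehicle over young that came to 0.52 to 0.57, inside the limit, with 3 other scalings, and it overlaps Cdc20 on the other strand. Elovl5 was highest and Elovl6 lowest in the young library.

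The 2 sterol exporters did not move together. Abca1 (chromosome 4, 53030787 to 53159895), which passes cholesterol to apolipoproteins, was at 8.66 CPM in the old fumarate (exact interval 7.18 to 10.4), 2.14 CPM in the old vehicle (1.51 to 2.95) and 6.03 CPM in the young library (5.30 to 6.83). These levels rest on 120, 37 and 247 estimated reads. Its plain CPM ratio was 4.04-fold for old fumarate over old vehicle, and its log2 ratio of CPM + 1 was 1.62 (interval of the plain log2 ratio 1.47 to 2.59). For old vehicle over young the log2 ratio was −1.16 and for old fumarate over young 0.46. Abcg1, which passes cholesterol to lipoprotein particles, was at 7.29, 10.9 and 14.0 CPM in the old fumarate, old vehicle and young libraries. Its log2 ratios were −0.53 for old fumarate over old vehicle, −0.32 for old vehicle over young and −0.85 for old fumarate over young, the last past 1.5-fold. On plain CPM its ratio for old fumarate over old vehicle was −0.587, just past that limit. Fumarate cells thus held the highest Abca1 and the lowest Abcg1 of the 3 libraries. The macrophage and monocyte markers, of cells that also use both exporters, summed to 5.41, 33.5 and 3.03 CPM in the old fumarate, old vehicle and young libraries, and their part in these levels was not tested. Abca1 shares no window with other genes.

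**Figure D3:**
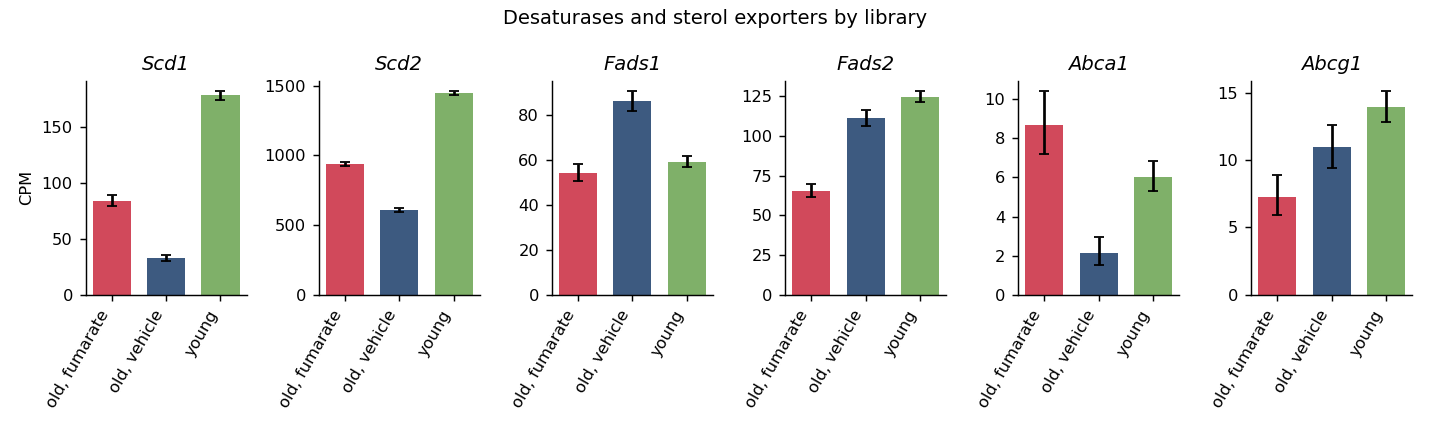
Levels of 4 desaturases and 2 sterol exporters (CPM, linear axes from 0 that differ between panels) in the old fumarate, old vehicle and young libraries; error bars are exact 95% intervals for counting error only. Scd1, Scd2 and Abca1 are lowest in the old vehicle library, and Fads1, Fads2 and Abcg1 are lowest in the old fumarate library.

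Set against old vehicle, the old fumarate library asks whether treatment of aged mice goes with other levels of these genes. Scd1 and Scd2 were the synthesis genes at least 1.5-fold higher, 2 of 31, and Fads1 and Fads2 the ones lower, also 2 of 31. Across the 13750 genes with a mean of at least 1 CPM, 2.15% were higher and 11.2% lower by this rule. The median log2 ratio of the synthesis genes was 0.07, against −0.02 over all genes tested, and 27 of the 31 lay within 1.5-fold. The shares of 6.45% each way rest on 2 genes each and are no result about the group. Abca1 at 1.62 and Abcg1 at −0.53 lay on either side of that median. In this pair 12 of 12 erythroid and platelet markers, 9 of 9 basophil and mast cell markers and 8 of 8 macrophage and monocyte markers were lower. After scaling to the T cell markers, which had a median of 0.22 in this pair, Scd2 was no longer past the limit, Idi1 and Dhcr7 were lower as well, and the synthesis median was −0.16. By that scaling 0.865% of all genes were higher and 16.8% lower, and the median of all genes was moved by −0.22.

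The question of age was addressed by old vehicle over young. Of the synthesis genes, 8 of 31 were lower (25.8%, against 6.73% of all genes tested): Scd1, Scd2, Pmvk, Hmgcs1, Mvd, Fdps, Cyp51 and Dhcr7. By stage, these were 4 of 6 mevalonate genes, 2 of 11 squalene and sterol genes and 2 of 7 desaturases and elongases, with none of the 4 regulators or of the 3 fatty acid synthesis genes. Elovl1 alone was higher, 1 of 31, against 16.5% of all genes. The median of the 31 was −0.40, against 0.03 over all genes tested, and 24 had a ratio below 0. Without Scd1 and Scd2, left out after their values were seen, the median of the other 29 was −0.30. The T cell markers had a median of −0.43 in this pair, near that of the synthesis genes, while 12 of 12 erythroid and platelet markers, 9 of 9 basophil and mast cell markers and 8 of 8 macrophage and monocyte markers were higher. With scaling to the T cell markers, 3 synthesis genes were lower (Pmvk, Scd1 and Scd2), 2 were higher (Elovl1 and Fads1) and the median was −0.08. By that scaling 28.5% of all genes were higher and 2.91% lower, and the median of all genes was moved by 0.30.

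The old fumarate library set against the young one does not involve the old vehicle library. It had 6 of 31 synthesis genes lower (19.4%, against 6.79% of all genes): Scd1, Dhcr7, Pmvk, Fads2, Mvd and Scd2. None was higher, against 10.5% of all genes. The median was −0.40, against 0.00 over all genes, and 27 of 31 ratios were below 0, including all 6 mevalonate genes and all 11 squalene and sterol genes, of which Ebp was above 0 with T cell marker scaling. Idi1 and Fdps at −0.58 and Tm7sf2 and Nsdhl at −0.57 lay just inside the limit. On plain CPM Tm7sf2 was at −0.628, past it. In this pair the T cell markers had a median of −0.16. With scaling to them the median of the synthesis genes was −0.31 and 5 were lower, against 5.33% of all genes. The erythroid and platelet markers were higher in 7 of 12 cases and those of basophils and mast cells in 8 of 9. Each library enters 2 of the 3 pairs, so the pairs are not independent of each other. Across the libraries, 16 of the 31 synthesis genes had the order old vehicle, old fumarate, young from low to high, and 8 the order old fumarate, old vehicle, young. The share of all genes with each order was not computed, so these counts are no result about the group. The 16 include near ties, such as Sqle at 147.3 CPM in the old fumarate and 147.2 CPM in the old vehicle library. With T cell marker scaling, only Insig1, Hmgcs1, Sc5d, Scd1 and Scd2 of the 16 kept a ratio above 0 for old fumarate over old vehicle.

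**Figure D4:**
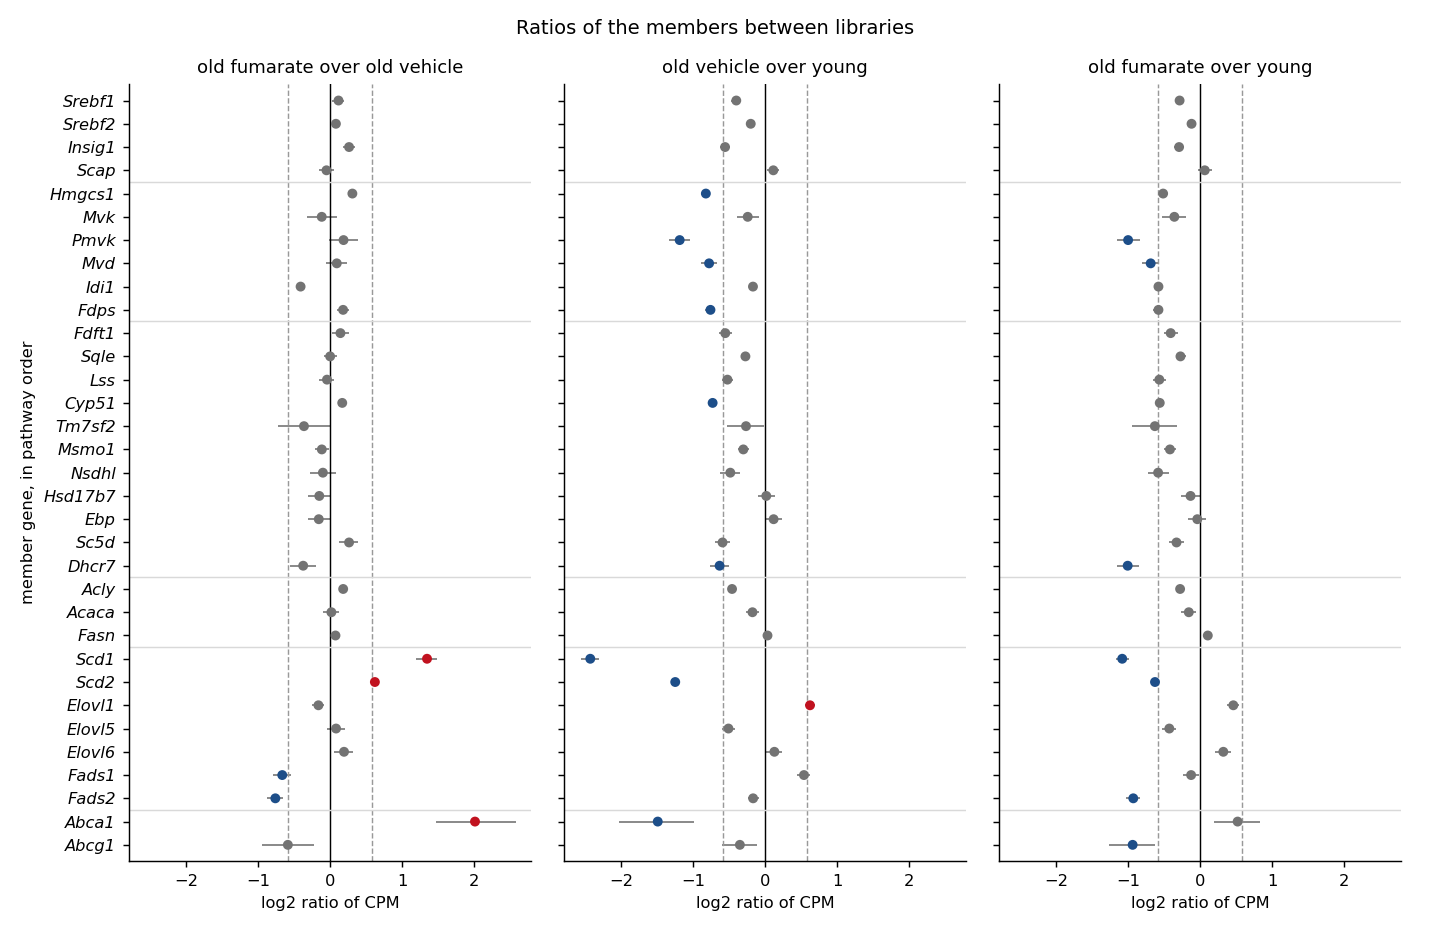
Log2 ratio of plain CPM for the 33 members in pathway order, in 3 panels: old fumarate over old vehicle, old vehicle over young and old fumarate over young; bars are exact 95% intervals for counting error only and dashed lines mark 1.5-fold. Red and blue points are higher and lower past 1.5-fold on the CPM + 1 scale. In the first panel 5 points are coloured, Abca1, Scd1, Scd2, Fads1 and Fads2, and in the second 9 are blue and 1 is red.

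Other genes of the pathway came from lists compiled beside the members. Of 16 further synthesis genes with at least 1 CPM, 0 were higher and 1 lower (6.25%) for old fumarate over old vehicle, against 2.15% and 11.2% of all genes. That gene was Acss2, which makes acetyl-CoA from acetate, at 6.28 CPM in the old fumarate, 16.7 CPM in the old vehicle and 20.4 CPM in the young library. For old vehicle over young 1 was higher (6.25%) and 2 lower (12.5%), against 16.5% and 6.73% of all genes. The higher one was Me1, malic enzyme, which supplies NADPH, at 15.2, 9.91 and 1.37 CPM in the old fumarate, old vehicle and young libraries. The lower ones were Acsl3, which activates fatty acids, at 25.6, 22.8 and 51.7 CPM, and Acat2, of the first step towards mevalonate, at 90.1, 74.5 and 130 CPM. For old fumarate over young, 1 was higher (6.25%), Me1, and 3 were lower (18.8%), Acss2, Acsl3 and Slc25a1, the mitochondrial citrate carrier at 62.5, 79.0 and 95.7 CPM, against 10.5% and 6.79% of all genes.

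None of 7 further genes that control the regulators was past 1.5-fold in any pair, and Insig2 was at 21.3, 22.9 and 24.6 CPM in the old fumarate, old vehicle and young libraries. Of 12 genes of sterol uptake, transport and storage, 0 were higher and 2 lower (16.7%) for old fumarate over old vehicle, against 2.15% and 11.2% of all genes. Vldlr, a lipoprotein receptor, was at 7.36, 33.2 and 28.4 CPM, so its log2 ratio for old fumarate was −2.03 over old vehicle and −1.82 over young. Scarb1, which takes up sterol from lipoproteins, was at 53.8, 87.2 and 63.4 CPM. For old vehicle over young none of the 12 was past the limit, and for old fumarate over young Npc1, which moves sterol out of lysosomes, was higher at 81.6 against 48.4 CPM, and Vldlr was lower (8.33% each, against 10.5% and 6.79% of all genes).

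Of 9 LXR genes and targets with at least 1 CPM, 1 was higher and 1 lower (11.1% each) for old fumarate over old vehicle, against 2.15% and 11.2% of all genes. In this pair the median log2 ratio of the 9 was −0.22, against −0.025 over all genes tested, and 8 of the 9 had a ratio below 0. Arl4c, a small GTPase, was higher at 141 CPM in the old fumarate, against 93.3 CPM in the old vehicle and 69.8 CPM in the young library. Apoe, an apolipoprotein, was lower at 3.61 CPM in the old fumarate, against 7.12 CPM in the old vehicle library, and stood at 3.83 CPM in the young one. For old vehicle over young Apoe and Pltp, which transfers phospholipid, were higher (22.2%, against 16.5% of all genes), and for old fumarate over young Arl4c alone (11.1%, against 10.5%). Nr1h2, which encodes LXR beta, was at 63.0, 73.4 and 61.3 CPM, whereas Nr1h3, which encodes LXR alpha, was at 0.289, 0.290 and 0.195 CPM.

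**Figure D5:**
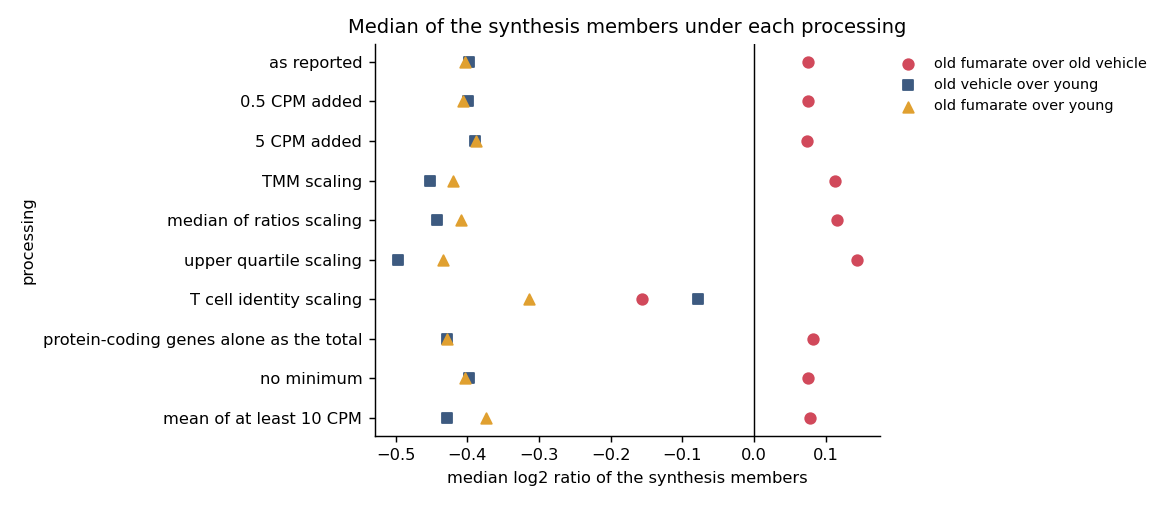
Median log2 ratio of the synthesis members (x axis) in the 3 pairs of libraries under each way of processing (y axis). The medians against young stay below 0 in every row, from −0.50 to −0.08 for old vehicle and from −0.43 to −0.31 for old fumarate, and that of old fumarate over old vehicle lies between 0.07 and 0.14 except at −0.16 with T cell identity scaling.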

How the data were processed

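The table holds CPM made by the authors, although it is named as raw counts: each deposited column sums to 1000000. STAR, Partek and build mm10 are named, per the submitters' processing notes, with no versions or roles; the strand setting is not given in the sources. Libraries were made from 500 ng of RNA with a SMARTER kit, per the labels' protocols. Depth was estimated from the step between low values; between 58.5% and 68.2% of genes came within 0.02 of a whole read, so reads were not recovered and no count model was used. Computed here were log2 ratios of CPM + 1, with a minimum mean of 1 CPM over the 3 libraries and a limit of 1.5-fold. The 95% Clopper-Pearson intervals on estimated reads cover counting error only, because each group has 1 library. Reads are not independent molecules, so the intervals can be too narrow even for that error. Pseudogenes took 8.32% to 10.2% of CPM. The positions of all 33 members, with the end moved back by 1 base, are those of GENCODE M21, which also gave exon lengths and 50-base transcript windows. Groups come from the titles. The members, lists, motifs and alternatives were chosen with earlier results of these data known. Every member is named, and of other pathway lists up to 4 genes a list and pair past 1.5-fold. Alternatives were other added constants (0.5 and 5 CPM), other scalings (trimmed mean of M values or TMM with trims of 30% and 5%, median of ratios, upper quartile, T cell markers), no minimum or 10 CPM, and a 2-fold limit. Protein-coding genes alone as the total was added after seeing the data. Tools were scipy 1.17.1 and pandas 2.3.3, with numpy 2.4.6 and matplotlib 3.10.9, under Python 3.11.15.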

Additional observations from a re-analysis of the deposited data

How the results depend on the processing

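No member past 1.5-fold changed sign under any alternative. Past the limit under every other constant and scaling were 4 of 5 members for old fumarate over old vehicle (all but Scd2), 4 of 10 for old vehicle over young (Pmvk, Scd1, Scd2 and Abca1) and 6 of 7 for old fumarate over young (all but Scd2). With scaling to the T cell markers, old fumarate over old vehicle had 1 synthesis gene higher and 4 lower, with a median of −0.156. Of all genes 0.865% were higher and 16.8% lower. By the same scaling old vehicle over young had 2 higher and 3 lower, with a median of −0.078, against 28.5% and 2.91% of all genes. Upper quartile scaling gave 13 lower genes and a median of −0.497 for old vehicle over young, against 9.19% of all genes lower. It gave 12 lower genes for old fumarate over young, against 7.42% of all genes. For old vehicle over young no synthesis gene was higher (0) with TMM, median of ratios or upper quartile scaling, against 15.3%, 15.4% and 14.6% of all genes. With protein-coding genes alone as the total, 10 were lower for old fumarate over young, against 7.24% of all genes. A 2-fold limit left 1 higher and 0 lower for old fumarate over old vehicle, 0 higher and 3 lower for old vehicle over young, and 1 lower for old fumarate over young, since the limit itself is wider. The shares of all genes past 2-fold were not computed. Why the scalings differ was not tested. No paired analysis was possible because each group has 1 library. Depth limits mainly Abca1, with 37 reads in the old vehicle library.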

Other observations

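Relatives of the members and genes of lipid storage, chosen after their values were seen, give further values with no test. Dgat1, which makes triglyceride, was at 95.6 CPM in the old fumarate, 69.8 CPM in the old vehicle and 21.9 CPM in the young library, log2 ratios over young of 2.08 and 1.63. Dgat2, an unrelated enzyme of the same reaction, had the opposite order at 1.95, 2.78 and 5.51 CPM. Plin2, a lipid droplet coat protein, was at 24.9, 28.6 and 15.6 CPM, Acsl1, which activates fatty acids, at 24.8, 25.8 and 14.1 CPM, and Cd36, a fatty acid receptor that platelets and macrophages also carry, at 8.23, 9.79 and 2.32 CPM. These 3 were higher in both old libraries than in the young one. Plin3, Acsl4, Acsl5, Lpin1 and Fabp5 were within 1.5-fold in every pair, and Degs1 was at 170, 135 and 109 CPM.

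Among further transporters, Abca7 was at 52.9 CPM in the old fumarate, 78.2 CPM in the old vehicle and 38.1 CPM in the young library, and Abcg2 at 18.3, 29.4 and 14.8 CPM, and Abca2 at 71.2, 88.3 and 71.6 CPM. These 3 were highest in the old vehicle library. Abca3, at 51.4, 41.7 and 66.5 CPM, was lowest there, and Abcg4 was under 1 CPM in every library. Fads3, the neighbour of Fads1 and Fads2, was highest in the old vehicle library at 2.53, 4.87 and 2.27 CPM, and Fads6 lowest there at 4.11, 1.62 and 3.20 CPM. Elovl4 was at 3.39, 1.91 and 1.46 CPM and Elovl7 at 4.11, 5.79 and 3.00 CPM. Scd3 and Scd4, the other genes of the Scd cluster, were under 1 CPM in every library. Idi2, a relative of Idi1, was at 2.79, 2.58 and 6.30 CPM.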
